A study of Rattus rattus with 23 samples.

Results

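Mitosis and cytokinesis are carried out by a set of genes that most cells switch on together late in the cell cycle, and 49 of these were followed here in rat nasal respiratory epithelium after hydrogen sulfide (H2S), a gas that inhibits the mitochondrial respiratory chain. The list names the genes by symbol and was not drawn up independently of these data. Each gene was represented by the probe set with the highest mean signal among those carrying its symbol alone. Of the 49 genes, 41 had such a probe set, out of 14217 genes in the series that did, and 40 of them were tested among 11237 genes. Cenpe was measured but lay under the filter on low values. Ckap2 and Anln were present only on probe sets shared with other symbols, and Nek2, Ndc80, Kif4a, Tpx2, Cep55 and Ncapg were not analysed here. The filter asked for a signal above the median of the array on 3 or more arrays. Of the 40 genes that passed, 38 passed without the arrays of 24 h after H2S. The other 2, Mad2l1 and Birc5, passed only through them. These 2 remain in the counts of 40 below, although they were tested only because of their signals 24 h after H2S.

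RNA was hybridised to 23 Affymetrix Rat230_2 arrays, 1 for each animal, all male Sprague-Dawley rats, and every animal inhaled H2S or air in a nose-only system. The epithelium was collected by laser capture from the place where the gas injures the nose and the lining regrows. Animals given 200 ppm H2S for 3 h were sampled 3 h (animals 3 to 6), 6 h (animals 8 to 10) or 24 h (animals 11 to 14) after exposure began. Below, 3 h, 6 h and 24 h after H2S count from that start, so the 3 h animals were sampled as the exposure ended. Animals given it for 3 h on 5 days running were sampled at 144 h (animals 23 to 26). Air animals were sampled at 24 h (animals 15 to 18) and at 144 h (animals 19 to 22). No air group of 3 h or 6 h was analysed here, so these times were set against air at 24 h and differ from it in time as well as in gas. The comparisons of 3 h, 6 h and 24 h therefore share 4 control animals. The 144 h groups differ from the 24 h groups in the number of exposures as well as in time. The labels disagree in places: the age is 60 days in the sample labels and 10 weeks in the series' text, the organism field names another rat species than the strain and the taxonomy number do, and animals 6, 14 and 18 carry a treatment field of 5 days although their titles give 3 h, 24 h and 24 h. The titles were followed, and the median of each comparison that uses those animals is also given without them.

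The arrays of animals 18 (air, 24 h) and 22 (air, 144 h) stood apart, with median correlations to the other arrays of 0.427 and 0.741 where the remaining 21 arrays lay between 0.857 and 0.917. The RNA integrity number, a score of how intact the RNA was, is given for 19 animals. It was 5.5, 4.2, 2.6 and 10 in animals 11 to 14, the group in which the mitotic genes were highest. The ciliated cell gene Foxj1 averaged 9.35 ± 0.27 (SD, n = 4) in air at 24 h, as log2 of the signal plus 16, the basal cell gene Krt5 averaged 8.95 ± 1.18, and the collagen gene Col1a1 averaged 15.58 ± 0.32. Levels of different probe sets are not set against each other. In such bulk samples a larger share of dividing cells and more mitotic RNA in each cell cannot be told apart.

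As background, cyclins A2, B1 and B2 activate the kinase Cdk1 to start mitosis. Polo-like and Aurora kinases then build the spindle, the checkpoint holds the chromosomes until each is attached, and the anaphase promoting complex with Cdc20 triggers their separation. The central spindle and the small GTPase RhoA finally cut the cell apart. In airway epithelium few cells divide at rest, and basal cells are the main dividing population after injury.

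The 41 genes stood highest 24 h after H2S. The list level of an animal, the mean log2 value of the 41 genes minus the mean of all genes on that array, was 0.92, 1.44, 0.27 and 2.25 in animals 11 to 14. Each of these was above all 19 other animals. In air at 24 h the level was -0.01, -0.76, -0.54 and -0.55 in animals 15 to 18. Group means were -0.46 ± 0.32 (SD, n = 4) in air at 24 h, -0.61 ± 0.50 (n = 4) at 3 h after H2S, -0.78 ± 0.38 (n = 3) at 6 h, 1.22 ± 0.84 (n = 4) at 24 h, -0.83 ± 0.14 (n = 4) in air at 144 h and -0.32 ± 0.55 (n = 4) after H2S at 144 h. The mean 24 h after H2S was 0.87 ± 0.59 (n = 3) without animal 14. Of the 41 genes, 40 had their highest group mean in this group, and Aurkb had its highest after H2S at 144 h.

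**Figure D1:**
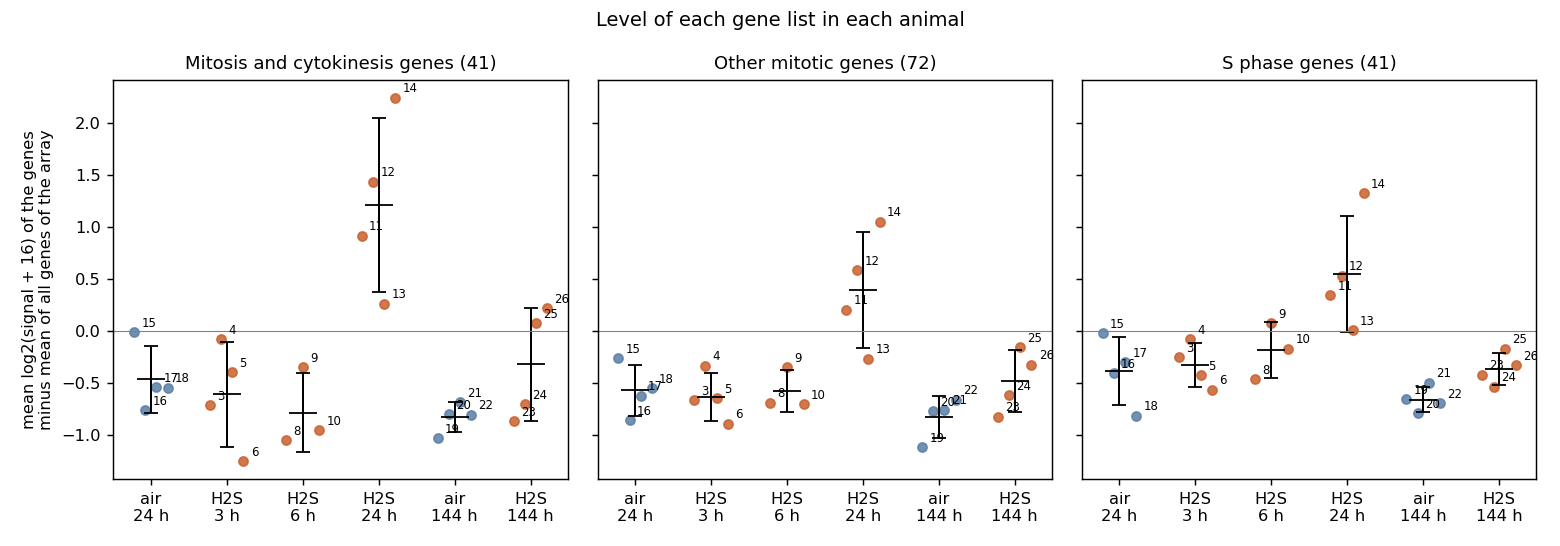
Level of each gene list in each animal (points, numbered) with the group mean and SD (black), in log2(signal + 16) relative to the average gene on that array, air in blue and H2S in orange. In the left panel, animals 11 to 14 lie between 0.27 and 2.25, above all other animals, and the other mitotic genes and S phase genes are shown beside it.

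Against air at 24 h, all 40 tested genes had a higher mean 24 h after H2S, with a median change of 1.81 on the log2(signal + 16) scale against a median of 0.14 over all genes tested. The change was over 1 for 33 genes and over 2 for 15. Without animals 6, 14 and 18, 38 of 40 were positive and the median was 1.40. None passed an adjusted p of 0.05 (limma, Benjamini-Hochberg over all kept probe sets), where 0.0089% of all genes passed as higher, and the lowest adjusted p among the 40 was 0.156, for Top2a. At an unadjusted p under 0.05, 28 of 40 were higher, beside 5.89% of all genes, and 0 were lower, beside 2.52%. In 15 of 40 every exposed animal lay above every air animal, beside 2.76% of all genes. Without animals 18 and 22 this count was 27, beside 4.81% of all genes, and without animals 6, 14 and 18 it was also 27, beside 6.53%. When each array was weighted by how well it fitted the model, 12 of the 40 passed an adjusted p of 0.05 as higher, beside 0.187% of all probe sets: Ccnb1, Ccnb2, Cdca3, Cdk1, Cenpf, Ect2, Hmmr, Kif23, Nuf2, Pttg1, Racgap1 and Top2a.

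**Figure D2:**
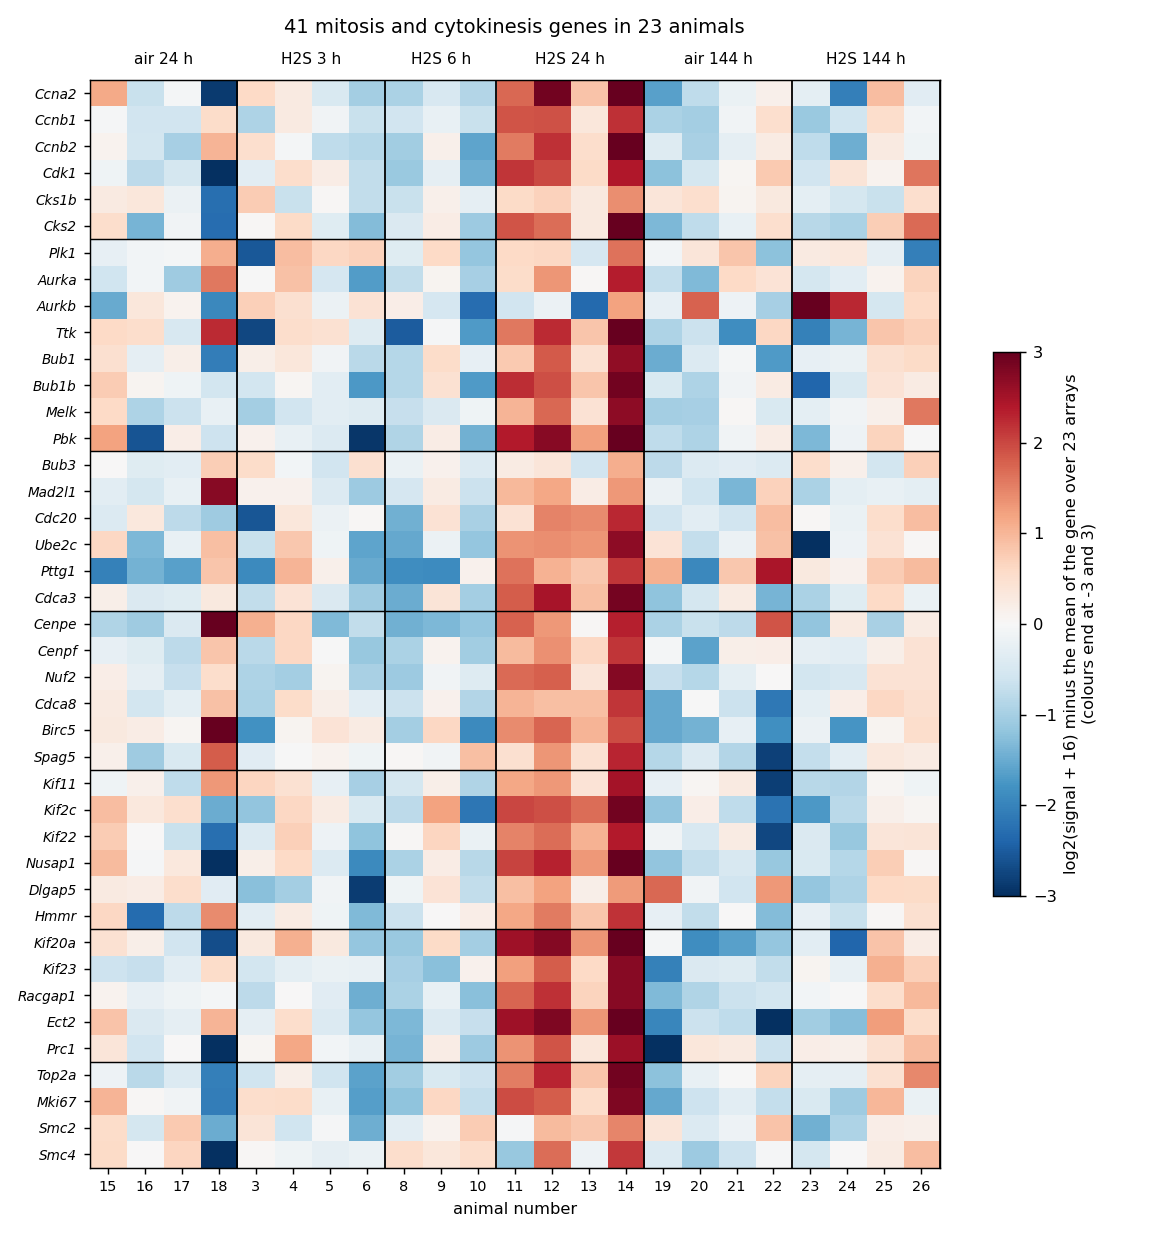
Heat map of the 41 genes (rows, by role, divided by black lines) in the 23 animals (columns, by group), coloured by log2(signal + 16) minus the mean of the gene over all arrays. The columns of animals 11 to 14 are red for nearly all genes, animal 14 most of all, and Aurkb is the row that is darkest after H2S at 144 h.

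All 6 genes of the mitotic cyclin and Cdk1 group had higher means 24 h after H2S, with a median change of 2.27. All 6 had an unadjusted p under 0.05, beside 5.89% of all genes. Cdk1, the kinase that starts mitosis, measured 11.50, 11.32, 9.93 and 11.75 in animals 11 to 14, and 9.21, 8.58, 8.82 and 6.21 in air animals 15 to 18. The groups did not overlap, and animal 18 was the lowest of the 23. The change was 2.92 (SE 0.60, adjusted p 0.243). Ccna2, the cyclin of S phase and early mitosis, measured 10.00, 11.16, 9.14 and 12.36 after H2S and 9.41, 7.60, 8.21 and 5.39 in air. Air animal 15 exceeded exposed animal 13, so the groups overlapped, and the change of 3.01 had an SE of 0.74 (adjusted p 0.352). With weighted arrays the changes of Cdk1 and Ccna2 were 2.37 and 2.41. Ccnb1, a cyclin that enters the nucleus as mitosis begins, stood at 10.51, 10.54, 8.98 and 10.82 after H2S and at 8.61, 8.06, 8.07 and 9.20 in air, where animal 18 lay above animal 13. Its change was 1.73 (SE 0.45, adjusted p 0.379), that of Ccnb2 was 2.00, and those of the Cdk1 binding subunits Cks2 and Cks1b were 2.53 and 1.20.

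Of the 8 tested genes in the mitotic kinase group, all had higher means, with a median change of 1.55. Of these, 4 had an unadjusted p under 0.05, beside 5.89% of all genes. These 4 were Pbk (2.88, SE 0.72), the checkpoint genes Bub1b (1.93) and Bub1 (1.86), and Melk (1.77). Bub1b measured 9.32, 9.04, 7.92 and 9.99 in animals 11 to 14 and 7.86, 7.17, 6.98 and 6.54 in animals 15 to 18, without overlap. The smallest values of the group were those of Plk1 and Aurkb. Plk1, which drives spindle assembly and the exit from mitosis, stood at 8.10, 8.10, 7.0 and 9.11 after H2S and at 7.25, 7.42, 7.42 and 8.59 in air. The ranges overlapped, and the change was 0.41 (SE 0.69, adjusted p 0.855). Aurkb, the kinase that corrects wrong attachments of chromosomes, stood at 10.87, 11.28, 9.11 and 12.67 after H2S and at 9.93, 11.79, 11.56 and 9.52 in air, a change of 0.29 (SE 0.81, adjusted p 0.918). Aurka, which matures the spindle poles, had a change of 1.11 (SE 0.61).

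The 6 genes of the checkpoint and the anaphase promoting complex had a median change of 1.79. Of these, 4 had an unadjusted p under 0.05, beside 5.89% of all genes. Pttg1, the securin that holds back chromosome separation, had a change of 2.46 (SE 0.78), Cdca3 one of 2.09 (SE 0.49), Cdc20 one of 1.89 (SE 0.57) and Ube2c, the ubiquitin carrier of the complex, one of 1.70 (SE 0.66). Cdca3, a substrate of the complex that promotes entry into mitosis, measured 10.94, 11.58, 10.01 and 12.00 in animals 11 to 14 against 9.29, 8.70, 8.76 and 9.42 in animals 15 to 18, with no overlap. The checkpoint proteins Mad2l1 and Bub3 had changes of 0.50 (SE 0.56) and 0.26 (SE 0.37), the latter being the smallest of all 40. For Mad2l1, animal 18 at 10.14 was above every exposed animal, while the other 3 air animals lay between 6.88 and 7.19. With weighted arrays the change of Mad2l1 was 1.23. Of its further probe sets, the one that passed the filter had 1.68 and the one under the filter had -0.11.

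Among kinetochore and centromere genes, 5 were tested, all with a higher mean, and their median change was 1.15. Nuf2, which ties the kinetochore to microtubules, measured 10.43, 10.52, 9.09 and 11.48 after H2S against 8.92, 8.45, 8.04 and 9.24 in air, a change of 1.72 (SE 0.44, adjusted p 0.352). Only animal 18 lay above the lowest exposed animal. Cenpf had a change of 1.42 (SE 0.48). Cdca8, which anchors Aurkb at centromeres, had one of 1.15 (SE 0.46) and Birc5, also known as survivin, one of 0.62 (SE 0.67). Cenpe, the kinesin of the kinetochore and the gene that was not tested, measured 7.46, 6.98, 5.70 and 8.02 after H2S and 4.78, 4.61, 5.23 and 9.08 in air.

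The 6 tested kinesins and spindle genes had a median change of 1.88. Nusap1, which bundles spindle microtubules, led with 2.69 (SE 0.67, adjusted p 0.352): animals 11 to 14 measured 10.72, 11.01, 10.01 and 12.02 and air animals 9.64, 8.67, 9.01 and 5.68, without overlap. Kif22, Kif2c, Hmmr, Kif11 and Dlgap5 followed with 2.19, 2.06, 1.70, 1.20 and 0.73. The 5.68 of Nusap1 came from animal 18, and with weighted arrays Hmmr led with 2.13 and Nusap1 had 1.94.

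All 5 tested cytokinesis genes were higher 24 h after H2S with an unadjusted p under 0.05, beside 5.89% of all genes. Their median change was 2.19, and 4 of the 5 did not overlap, beside 2.76% of all genes. Kif20a, the kinesin that carries regulators to the central spindle, had the largest change of the 40 at 3.15 (SE 0.71, adjusted p 0.338). It measured 10.97, 11.17, 9.74 and 11.80 after H2S against 8.87, 8.59, 7.86 and 5.76 in air, the last in animal 18. With weighted arrays its change was 2.79, and Pttg1 had the largest at 3.09. Pttg1 measured 5.06, 5.65, 5.44 and 7.91 in air animals 15 to 18, and the first 3 of these lie near the lower end of the array. Racgap1 and Kif23 together form the centralspindlin complex. Racgap1 measured 11.48, 11.93, 10.41 and 12.45 after H2S and 9.84, 9.49, 9.59 and 9.67 in air, a change of 1.92 (SE 0.41, adjusted p 0.290). Its air animals lay between 9.49 and 9.84, with animal 18 among them. The second probe set of Racgap1, which passed the filter, had a change of 0.39. Kif23 had 10.66, 11.26, 10.04 and 12.16 against 8.82, 8.75, 9.12 and 9.98, a change of 1.86 (SE 0.46). Ect2, which activates RhoA at the cleavage furrow, had a change of 2.19 (SE 0.62), and Prc1, the microtubule bundler of the central spindle, one of 2.37 (SE 0.73).

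Of the 4 tested genes of chromosome structure, Top2a and Mki67 had unadjusted p values under 0.05 and the condensin subunits Smc2 and Smc4 did not. Top2a, the topoisomerase that untangles sister chromosomes, measured 10.37, 11.12, 9.67 and 11.74 after H2S against 8.69, 8.02, 8.43 and 6.78 in air, a change of 2.74 (SE 0.53). Mki67, the Ki-67 proliferation marker that coats mitotic chromosomes, measured 11.30, 11.17, 9.91 and 12.16 against 10.37, 9.39, 9.23 and 7.29, a change of 2.06 (SE 0.63, adjusted p 0.530). Top2a did not overlap, and for Mki67 air animal 15 lay above animal 13. Smc4 had a change of 1.08 (SE 0.68), with animal 11 at 7.21, below 3 of the air animals.

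**Figure D3:**
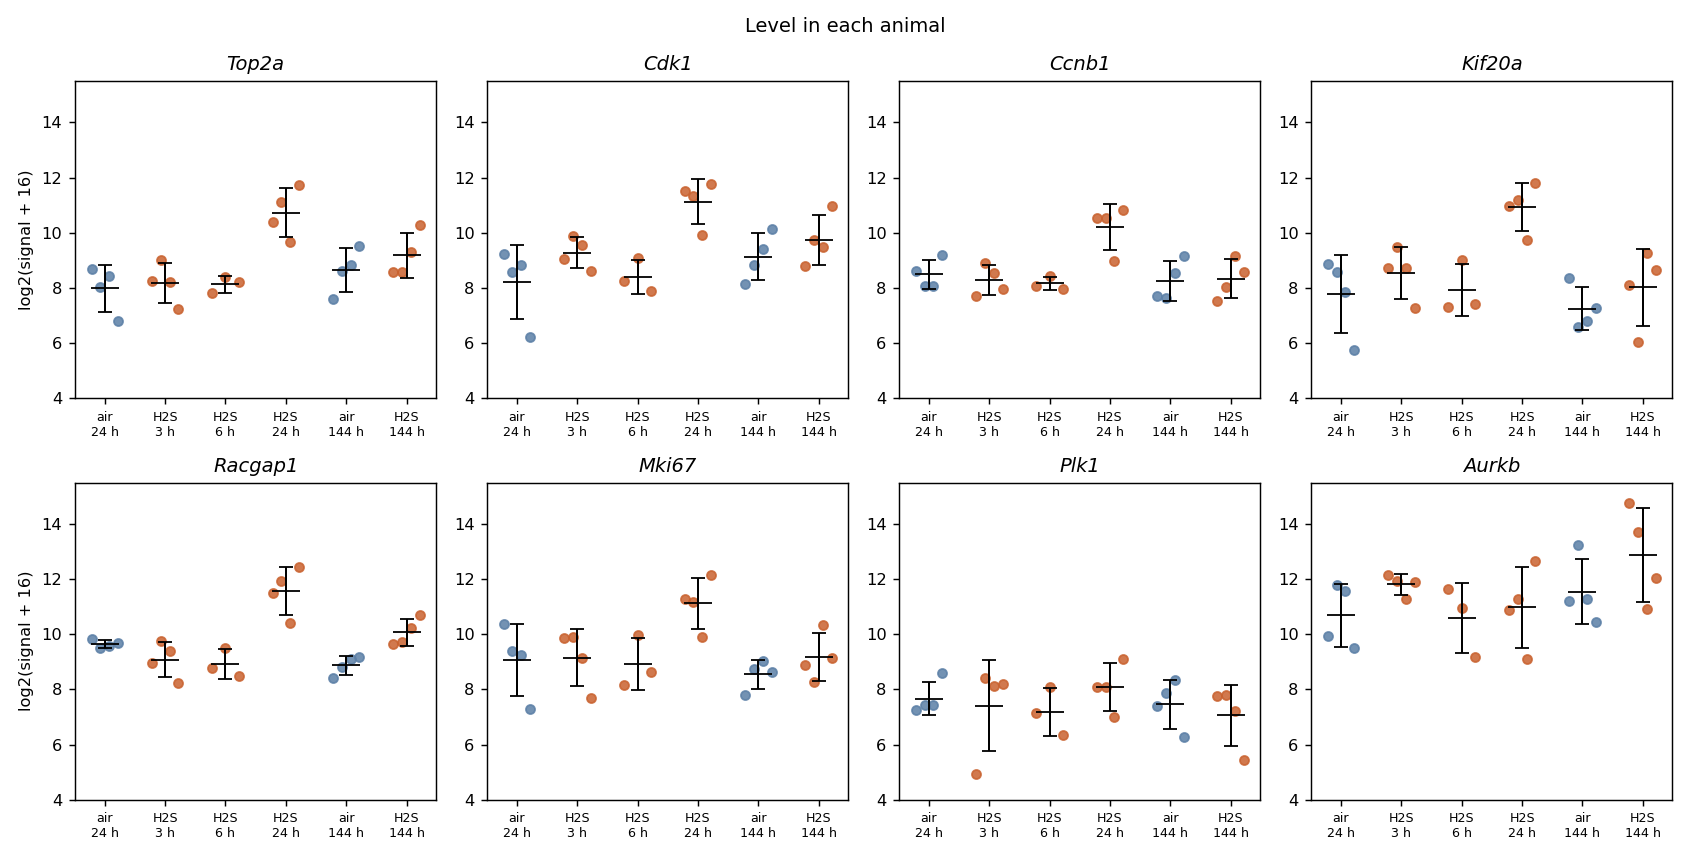
Level of 8 genes in each animal (points) with the group mean and SD (black), as log2(signal + 16), air in blue and H2S in orange. Top2a, Cdk1, Kif20a and Racgap1 have all points 24 h after H2S above those of air at 24 h, Ccnb1 and Mki67 overlap by 1 air animal, and Plk1 and Aurkb overlap widely.

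Within the group sampled 24 h after H2S, the animals kept a similar order across genes. Animal 14 was the highest of the 4 for 41 of 41 genes and the highest of all 23 animals for 35, and animal 13 was the lowest of the 4 for 37. The genes share each array, so these counts describe the animals and are not separate pieces of evidence. The RNA integrity number ran from 10 in animal 14 to 2.6 in animal 13, animal 14 is one of those with a treatment field of 5 days, and the level of 12 stroma and vessel markers was 1.97, 1.99, 2.89 and 1.76 in animals 11 to 14. The part of these in the order of the animals was not tested. With the integrity number as a covariate, on the 19 arrays that have one, the median change of the 40 genes against air was 1.86, and it was 1.95 on the same arrays without the covariate.

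Some genes had a second probe set. There were 18 further probe sets for 14 genes, and 12 of the 18 had the sign of the chosen one in this comparison. Those that went the other way by over 0.5 belonged to Cdc20 (-1.07) and Kif23 (-0.85), and both lay under the filter. Probe sets of Smc4 (-0.44) and Cdc20 (-0.26) that passed the filter also had the other sign. In other comparisons with air, probe sets going the other way by over 0.5 belonged to Ccnb1, Cks1b, Bub3, Cdc20 and Smc4 at 3 h. At 6 h they belonged to Ttk, Cdc20 and Top2a, and at 144 h to Cdc20 and Kif2c.

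At 3 h after H2S the mitotic genes lay on both sides of their air level. The median change was -0.19, with 15 of 40 genes positive, against a median of 0.14 over all genes. None passed, where 0.0979% of all genes passed as higher and 0.0089% as lower, and 1 of 40 was lower at an unadjusted p under 0.05, beside 3.01% of all genes. The values above 1 were those of Aurkb (1.12, SE 0.81), Cdk1 (1.07, SE 0.60) and Prc1 (1.06, SE 0.73). Those under -1 were Dlgap5 (-1.47, SE 0.57), which had the unadjusted p under 0.05, Ttk (-1.25, SE 0.82) and Birc5 (-1.18, SE 0.67). The sign of the median turned without animal 6, to 0.05, and without animals 6, 14 and 18, to 0.07.

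At 6 h the median change against air was -0.22, with 12 of 40 positive. None passed, beside 0% of all genes in each direction, and Ttk (-2.14, SE 0.88) and Birc5 (-1.67, SE 0.72) had an unadjusted p under 0.05, 2 of 40 beside 2.13% of all genes. The second probe set of Ttk, under the filter, had 0.78. Air animal 18 stood at 9.33 for Ttk, where the other air animals lay between 6.61 and 7.70, and at 9.90 for Birc5, where they lay between 6.88 and 7.12. The 3 h values of both genes rest on the same air animals. Top2a differed from air by 0.19 (SE 0.53) at 3 h and 0.15 (SE 0.57) at 6 h, and Mki67 by 0.08 (SE 0.63) and -0.16 (SE 0.68). The second probe set of Top2a, which passed the filter, had -0.66 at 6 h. The median at 6 h was 0.04 with median centring, -0.53 without animal 9, -0.07 without animal 10, -0.39 without animal 16 and -0.31 without animals 6, 14 and 18.

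Between 3 h and 6 h after H2S the median difference was -0.22, with 10 of 40 positive. It was 0.05 without animal 4, -0.52 without animal 9, -0.43 without animal 6 (the same without animals 6, 14 and 18), -0.11 without animal 8 and -0.04 without animal 10. On the 19 arrays with an RNA integrity number it was -0.76, and -0.74 with that number as a covariate. None passed, beside 0% of all genes as higher and 0.0089% as lower, and 0 had an unadjusted p under 0.05 in either direction, beside 1.98% of all genes higher and 2.19% lower. Smc4 alone had no overlap, with 8.88, 8.70 and 8.89 at 6 h above 8.38, 8.23, 8.10 and 8.15 at 3 h, beside 2.82% of all genes not overlapping as higher.

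From 6 h to 24 h after H2S all 40 genes had a higher mean, with a median difference of 2.17 against 0.03 over all genes. Without animals 6, 14 and 18, 38 of 40 were positive and the median was 1.84. One gene passed an adjusted p of 0.05, beside 0.0089% of all genes, and it was Racgap1. It measured 8.79, 9.51 and 8.48 at 6 h and 11.48, 11.93, 10.41 and 12.45 at 24 h, without overlap, and rose by 2.64 (SE 0.44, adjusted p 0.0461). That call was kept in 9 of 35 other settings and lost in 26, including 18 of the 23 that left out 1 animal (it was kept without animal 4, 6, 13, 18 or 26), with the change between 2.07 and 3.03 and the adjusted p between 0.00138 and 0.502. At an unadjusted p under 0.05, 31 of 40 genes were higher, beside 2.36% of all genes, and 29 did not overlap, beside 4.34%. These 29 include Birc5, which passed the filter only through the arrays of 24 h after H2S. Without animals 6, 14 and 18, 29 did not overlap, beside 5.54%. With weighted arrays 25 of 40 passed, beside 0.404% of all probe sets, and these 25 also include Birc5.

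The largest differences between 6 h and 24 h belonged to Ttk, a checkpoint kinase (3.47, SE 0.88), Ect2 (3.30, SE 0.67), Ccna2 (3.15, SE 0.80) and Pbk (3.14, SE 0.77). Ttk and Pttg1 lay near the lower end of the array at 6 h, with group means under 6, where the log2(signal + 16) scale shortens changes. The 5 cytokinesis genes all had differences between 2.28 and 3.30 and no overlap, beside 4.34% of all genes. All 6 of the cyclin and Cdk1 group also had no overlap, with differences between 1.00 and 3.15. Ect2 measured 6.80, 7.72 and 7.45 at 6 h and 10.69, 10.94, 9.46 and 11.38 at 24 h. Cdca3 measured 7.64, 9.52 and 8.11 at 6 h, a difference of 2.72 (SE 0.53, adjusted p 0.191). Smc4 (0.16), Aurkb (0.39), Bub3 (0.44), Smc2 (0.62), Spag5 (0.86) and Plk1 (0.89) had the smallest differences.

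Cell type markers were measured over the same step from 6 h to 24 h. Ciliated cell markers had 12 of 12 positive with a median of 1.03, secretory cell markers 10 of 10 with 0.91 and basal cell markers 6 of 9 with 0.34. Stroma and vessel markers had 9 of 10 negative with a median of -0.56, and leukocyte markers 14 of 18 negative with -0.40. None of these markers passed the test, and their part in the difference of the mitotic genes was not tested.

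After 5 exposures, at 144 h, the genes lay closer to air. The median change against air at 144 h was 0.48, with 31 of 40 positive, against 0.01 over all genes. It was 0.23 without animal 26 and 0.31 without animal 25. None passed, beside 0% of all genes in each direction, and the lowest adjusted p was 0.582. At an unadjusted p under 0.05, 4 of 40 were higher, beside 4.56% of all genes, and 2 of 40 did not overlap, beside 3.13%. The 4 were Racgap1 (1.20, SE 0.41), Cdca8 (1.34, SE 0.46), Kif23 (1.30, SE 0.46) and Ect2 (1.57, SE 0.62). With weighted arrays their changes, in the same order, were 1.15, 0.94, 1.11 and 0.70, with adjusted p of 0.218 or higher. Ect2 and Cdca8 were lowest in air animal 22, whose array stood apart, at 4.71 and 5.94. The other air animals lay between 6.18 and 7.49 for Ect2 and between 6.56 and 8.08 for Cdca8. Racgap1 measured 9.63, 9.71, 10.25 and 10.69 in animals 23 to 26 and 8.40, 8.82, 9.09 and 9.18 in air animals 19 to 22. Kif23 measured 9.51, 9.21, 10.50 and 10.15 against 7.41, 9.0, 9.06 and 8.70. These 2 were the genes without overlap.

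All 5 cytokinesis genes were positive at 144 h, with a median of 1.23, while the cyclin and Cdk1 group had a median of 0.13 and 4 of 6 positive. Ccnb1 differed from air by 0.08 (SE 0.45), Ccna2 by 0.17 (SE 0.74), Mki67 by 0.62 (SE 0.63) and Top2a by 0.54 (SE 0.53). The difference between these groups of genes was not tested. Animals 25 and 26 had list levels of 0.08 and 0.22, and animals 23 and 24 had -0.87 and -0.70. The RNA integrity number was 4.8, 5.1, 4.5 and 1.7 in animals 23 to 26, that of animal 26 being the lowest of all given, and its part was not tested. One of animals 25 and 26 was the highest of the 4 exposed animals for most genes: animal 25 for 21 and animal 26 for 17 of 41. In the comparison with air at 144 h, ciliated cell markers had 12 of 12 positive with a median of 1.18, basal cell markers 7 of 9 with 0.75, and stroma and vessel markers 8 of 10 negative with -0.64. The part of these in the mitotic values was not tested.

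Aurkb had its highest values at 144 h. It measured 14.76, 13.71, 10.93 and 12.04 in animals 23 to 26 and 11.20, 13.22, 11.29 and 10.47 in animals 19 to 22, a change of 1.32 (SE 0.81, adjusted p 0.708). The highest values were in animals 23 and 24, which were the low animals for most other genes. From 24 h to 144 h among exposed animals it was the only one of the 40 with a positive difference, at 1.88 (SE 0.81), higher at an unadjusted p under 0.05 beside 1.5% of all genes, and it did not pass.

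**Figure D4:**
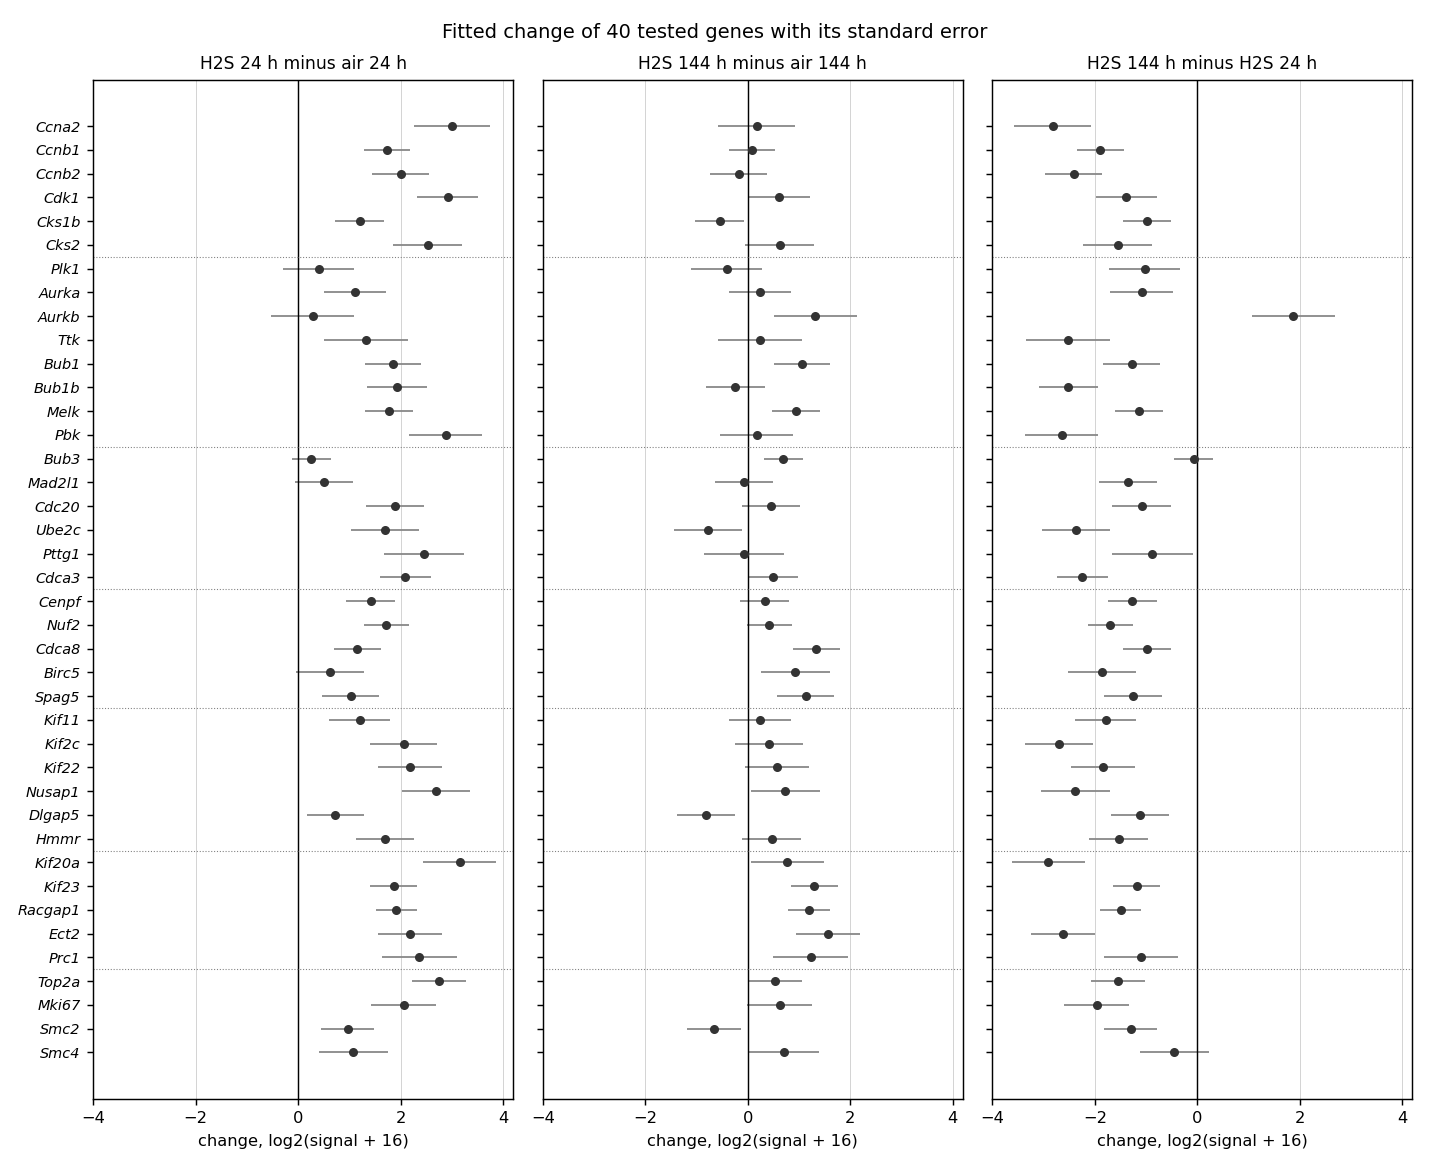
Fitted change (points) and standard error (bars) of the 40 tested genes by role, in log2(signal + 16), for H2S against air at 24 h (left), H2S against air at 144 h (middle) and H2S at 144 h against H2S at 24 h (right). All 40 points are right of 0 on the left, 31 are in the middle, and on the right 39 are left of 0 with Aurkb at 1.88.

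Set against the 24 h exposed animals, the exposed animals of 144 h were lower for 39 of 40 genes, with a median difference of -1.52 against -0.02 over all genes. Without animals 6, 14 and 18 the median was -1.21, with 3 of 40 positive, and 18 did not overlap, beside 5.04% of all genes. None passed, beside 0% of all genes, and the lowest adjusted p was 0.580. At an unadjusted p under 0.05, 30 of 40 were lower, beside 1.85% of all genes, and 18 did not overlap, beside 2.95%. With all animals, the 18 include Mad2l1 and Birc5, which passed the filter only through the arrays of 24 h after H2S. Weighted arrays gave 16 of 40 lower past an adjusted p of 0.05, beside 0.257% of all probe sets, and these 16 also include Mad2l1. The largest differences were those of Kif20a (-2.91, SE 0.71), Ccna2 (-2.83, SE 0.74), Kif2c (-2.70, SE 0.66), Pbk (-2.65, SE 0.72) and Ect2 (-2.62, SE 0.62), and the smallest was that of Bub3 (-0.07, SE 0.37). Kif20a measured 8.11, 6.04, 9.27 and 8.64 at 144 h, each below the lowest value of 24 h. Ciliated cell markers had 12 of 12 positive over the same step, with a median of 1.07, and their part was not tested.

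The exposure effect at 144 h minus that at 24 h, with both air groups taken into account, had a median of -1.37 over the 40 genes against -0.14 over all genes, and of -0.97 without animals 6, 14 and 18. None passed, beside 0% of all genes, and every adjusted p was 0.946 or higher. At an unadjusted p under 0.05, 15 of 40 were lower, beside 2.97% of all genes. The 4 with the smallest p were Top2a (-2.21, SE 0.74), Ccnb2 (-2.18, SE 0.79), Cdk1 (-2.31, SE 0.85) and Ccna2 (-2.84, SE 1.05). Of these, Ccna2 had the largest value of the 40, and with weighted arrays Ccnb2 had it, at -2.86. The cytokinesis genes Racgap1 (-0.72, SE 0.57), Kif23 (-0.56, SE 0.65) and Ect2 (-0.63, SE 0.88) had unadjusted p values above 0.05.

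Air animals of the 2 times were compared as well. The median of air at 144 h minus air at 24 h was -0.27, with 13 of 40 positive, against 0.10 over all genes. None passed, beside 0% of all genes. At an unadjusted p under 0.05, 4 of 40 were lower, beside 2.68% of all genes, and Pttg1 was higher (1.66, SE 0.78), beside 4.89%. Birc5 (-2.16, SE 0.67), Ect2 (-1.99, SE 0.62) and Racgap1 (-0.78, SE 0.41) did not overlap, 3 of 40 beside 0.89% of all genes. Ect2 and Racgap1, which led at 144 h against air, were thus lower in those air animals than in air at 24 h, and animal 22 at 4.71 was the lowest of all for Ect2. Without animals 18 and 22 the count without overlap was 8, beside 4.81% of all genes, and without animals 6, 14 and 18 it was 7, beside 2.78%, with a median of -0.27.

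Genes of the same process outside the 49 were taken from a list of 78 other mitotic genes, of which 62 were tested. Against air at 24 h, 57 of 62 were positive 24 h after H2S, with a median of 1.13, none passed, and 31 were higher at an unadjusted p under 0.05, beside 5.89% of all genes. Those with the smallest p were Cenpk (2.40, SE 0.48), Knstrn (2.44, SE 0.58), Cenpw (2.23, SE 0.57) and Hjurp (2.40, SE 0.62), all of the kinetochore or centromere. Of 39 S phase genes, 36 were positive, with a median of 0.99, and 19 were higher at an unadjusted p under 0.05, beside 5.89% of all genes. Tk1, the thymidine kinase, had a change of 2.13 (SE 0.37, adjusted p 0.0513), and Rrm1, the large ribonucleotide reductase subunit, one of 2.69 (SE 0.66). Pcna, the sliding clamp of DNA replication, had a change of 1.59 (SE 0.45) and no overlap.

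Of the 32 tested cell cycle regulators, 17 were positive and the median was 0.16, beside 0.14 over all genes. Foxm1, the transcription factor that drives many mitotic genes, had a change of 1.48 (SE 0.64, adjusted p 0.612) without overlap. The E2F family repressors E2f8 and E2f7 had changes of 1.70 (SE 0.74) and 1.21 (SE 0.45). Myc, a growth regulator, was at -1.13 (SE 0.43), with all exposed animals below all air animals. At 144 h against air, the S phase list had 24 of 39 positive and a median of 0.08, and the smallest p was that of Chaf1a, a histone chaperone of replication (2.21, SE 0.44, adjusted p 0.258).

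Markers of cell types were read beside the values of 24 h after H2S against air. Basal cell markers stood at a list level of 1.54 ± 0.34 (SD, n = 4) 24 h after H2S and 1.03 ± 0.47 (n = 4) in air at 24 h. Of 9 tested, 6 were positive, led by Lamb3, a laminin chain (1.63, SE 0.39), and the keratin Krt15 (2.32, SE 0.63), both without overlap, beside 2.76% of all genes, and Tp63, the basal cell transcription factor, had a change of 1.08 (SE 0.48). The 3 negative ones, named after their values were seen, were Itgb4 (-0.50, SE 0.58), Itga6 (-0.25, SE 0.35) and Col17a1 (-0.07, SE 0.78), which anchor basal cells to the matrix. The levels of 21 leukocyte markers lay between -0.40 and 0.06 in animals 11 to 14 and between -0.19 and 1.05 in air animals, and 5 of 18 tested were positive. Stroma and vessel markers had 4 of 10 positive, ciliated cell markers 11 of 12 and secretory cell markers 7 of 10. None of these markers passed the test. The part of a shift in cell types in the mitotic values was not tested.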

How the data were processed

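RNA of laser captured nasal epithelium was amplified in 2 rounds and hybridised, 1 array per animal, per the labels' protocols. The deposited values are linear signal intensity, made with GCOS 1.0 per the submitters' processing notes, with settings not given in the sources used here. Trimmed means (2% off each end) ran from 500.05 to 500.17, and array medians from 136 to 341. No further normalization was applied. Precision is limited by how many arrays there are. Each p-value sets a difference between groups against the spread of arrays within groups, in which animal and array differences are not separated.

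Values were taken as log2(intensity + 16). Of 31099 probe sets, 19822 above their array's median on at least 3 arrays were kept, and 57 controls were left out. Of all probe sets, the platform annotation gave 1 symbol to 20826, several to 436 and none to 9831. Each gene is its 1-symbol probe set with the highest mean.

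The tests were limma's (version 3.58.1, R 4.3.3), two-sided, with 1 mean for each group, a spread shared by all 23 arrays, and Benjamini-Hochberg adjustment across kept probe sets at 0.05. They were tested on simulated data and run for 9 comparisons. A list's median has no test. Members and lists were chosen with earlier results of these data known. Members given in full were among the 8 with the smallest p against air or from 6 h to 24 h, plus Mki67, Top2a, Cdk1, Ccnb1, Plk1, Aurkb and Kif20a. Alternatives were quantile normalization, median centring, array weights, a pseudocount of 1 or 64, all probe sets unfiltered, the RNA integrity number as covariate, fewer arrays or groups, the mean of probe sets, and each animal left out. Counts without overlap were recomputed without animals 18 and 22, and without 6, 14 and 18, chosen after seeing the data.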

Additional observations from a re-analysis of the deposited data

Results flagged for a closer look

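In 5 of 110 groups of 4 animals, taken over 21 genes chosen by rule to be given in full and the list level, 1 animal lay far from the other 3, and chance alone does this in about 1 group in 20. Plk1 was 8.59 in air animal 18, where the others lay between 7.25 and 7.42, and 4.94 in animal 3 at 3 h after H2S, where the others lay between 8.11 and 8.43. Nuf2 was 8.80 in animal 5 at 3 h after H2S, against 7.71 to 7.80. Ccnb1 was 8.98 in animal 13 at 24 h after H2S, against 10.51 to 10.82, and Cdca8 was 10.23 in animal 14 of that group, against 8.98 to 9.10.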

How the results depend on the processing

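With pseudocounts of 1 or 64, quantile normalization, median centring, no filter, fewer arrays or groups, or the mean of a gene's probe sets, the median change of the mitotic genes 24 h after H2S against air stayed between 1.40 (without animals 6, 14 and 18) and 2.08 (median centring). The count past an adjusted p of 0.05 there was 12 with array weights and 0 otherwise. From 6 h to 24 h the count was 25 with array weights, and 0 with a pseudocount of 1, median centring, no filter, without animals 6, 14 and 18, on the 19 arrays with an RNA integrity number with or without it as a covariate, with only the groups compared, and with the mean of all probe sets. From 24 h to 144 h among exposed animals it was 16 with array weights. The 25 include Birc5 and the 16 include Mad2l1, genes that passed the filter only through the arrays of 24 h after H2S. The median from 3 h to 6 h was -0.74 with the covariate and -0.76 on the 19 arrays without it. At 3 h the median against air was 0.07 without animals 6, 14 and 18, 0.08 with the covariate and 0.29 on the 19 arrays without it, and at 6 h it was 0.04 with median centring. The cause was not tested. With each animal left out in turn, the count was 0 to 3 from 6 h to 24 h and 0 in every other comparison, and the medians ranged from 1.47 to 2.14 (24 h against air), 0.23 to 0.67 (144 h against air), -0.30 to 0.05 (3 h), -0.53 to -0.07 (6 h), -0.52 to 0.05 (3 h to 6 h), 1.84 to 2.54 (6 h to 24 h), -1.84 to -1.21 (24 h to 144 h), -0.45 to -0.13 (air) and -1.58 to -1.04 (difference of effects). No paired analysis was possible because the animal numbers differ between groups and nothing in the labels pairs animals. Groups of 3 or 4 arrays and low signals of genes such as Ttk and Pttg1 limit what can be told apart.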
